A study of Mus musculus with 6 samples.

Results

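The platelet-derived growth factor (PDGF) system was examined in primary osteoblasts, the bone-forming cells, of wild type mice and of mice with a conditional deletion of the TET enzymes, the dioxygenases that turn 5-methylcytosine into its oxidised forms. Its 7 genes were taken by name and not by their values: the ligand genes Pdgfa, Pdgfb, Pdgfc and Pdgfd, the receptor genes Pdgfra and Pdgfrb, and the receptor-like gene Pdgfrl. They are 7 of the 55471 genes in the count table, and all 7 were among the 13826 genes with enough counts to be tested. Poly(A) RNA was sequenced, with 3 libraries of each genotype. All mice were C57BL/6 and 3-day-old, and the cells came from the calvaria, the skull cap, and were kept in culture before harvest. The TCKO mice carried Prx1-Cre with the floxed alleles Tet1fl/fl, Tet2fl/fl and Tet3fl/fl, and the control mice are labelled wild type (WT). Whether the WT mice carried floxed alleles or Cre is not given in the sources used here. Prx1-Cre is active in the mesenchyme of the limbs and part of the skull, so cells of another origin in a culture keep their Tet genes. The labels do not tie the 3 libraries of a genotype to separate animals or cultures, and the study's methods give only a general minimum of mice per group. The p-values therefore measure the spread between these libraries, which may be technical.

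PDGF ligands are secreted dimers that bind receptor tyrosine kinases on mesenchymal cells and drive their division and migration. PDGF-A and PDGF-B are cut to their active form inside the cell, whereas PDGF-C and PDGF-D leave it in latent form and are cut outside by proteases such as the plasminogen activators. PDGF receptor alpha binds mainly PDGF-A and PDGF-C and marks skeletal progenitors, and PDGF receptor beta binds PDGF-B and PDGF-D and is best known from pericytes, the cells that wrap small vessels.

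The libraries held between 8019999 and 10177214 counts, and the limit that a count of 0 allows, 3 counts, came to between 0.295 and 0.374 CPM (counts scaled to equal library size). Replicate 3 of both genotypes stood apart: the coefficient of variation beyond counting noise was 3% between WT replicates 1 and 2 and 3.62% between TCKO replicates 1 and 2, against 16.4% to 18.4% for every other pair of one genotype. TCKO replicate 3 also held 4583 counts of Xist and 0 of Ddx3y, where the other libraries held 1 to 4 of Xist and 675 to 1094 of Ddx3y, so its source was not that of TCKO replicates 1 and 2. Of the deleted genes, counted over all exons, Tet1 was lower in the libraries labelled TCKO (log2 fold change -0.97, edgeR adjusted p = 0.00648) and Tet3 was higher (0.51, adjusted p = 0.00745), while Tet2 was at -0.14 (adjusted p = 0.545). The directions given here therefore rest on the labels of the libraries.

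Compared per length, as RPKM (CPM per kilobase of exon), Pdgfrb was the most abundant of the 7 in WT at 82.8 ± 9.63 RPKM (SD, n = 3), above 95.5% of the tested genes. Pdgfc, at 32.0 ± 1.36 RPKM, and Pdgfa, at 18.1 ± 0.0815 RPKM, were the main ligands. Pdgfra lay far below Pdgfrb at 6.95 ± 1.74 RPKM, and its range overlapped that of Pdgfrl, at 6.39 ± 1.08 RPKM. Pdgfd followed at 3.42 ± 0.503 RPKM and Pdgfb was the lowest at 0.553 ± 0.174 RPKM, above 7.4% of the tested genes. All other neighbours in this order had ranges that did not overlap. In the libraries labelled TCKO, Pdgfrb stood at 45.1 ± 5.06 RPKM and its range overlapped that of Pdgfc, at 39.6 ± 2.85 RPKM. Below Pdgfa, at 19.5 ± 6.22 RPKM, the order had changed: Pdgfra (4.01 ± 1.14 RPKM) overlapped with Pdgfd (3.77 ± 0.154 RPKM), and Pdgfrl (2.76 ± 0.466 RPKM) lay under Pdgfd in every library. The ranges of Pdgfra and Pdgfrl overlapped, and in TCKO replicate 3 Pdgfrl, at 2.94 RPKM, lay above Pdgfra, at 2.71 RPKM. Pdgfb was again the lowest, at 0.341 ± 0.119 RPKM.

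**Figure D1:**
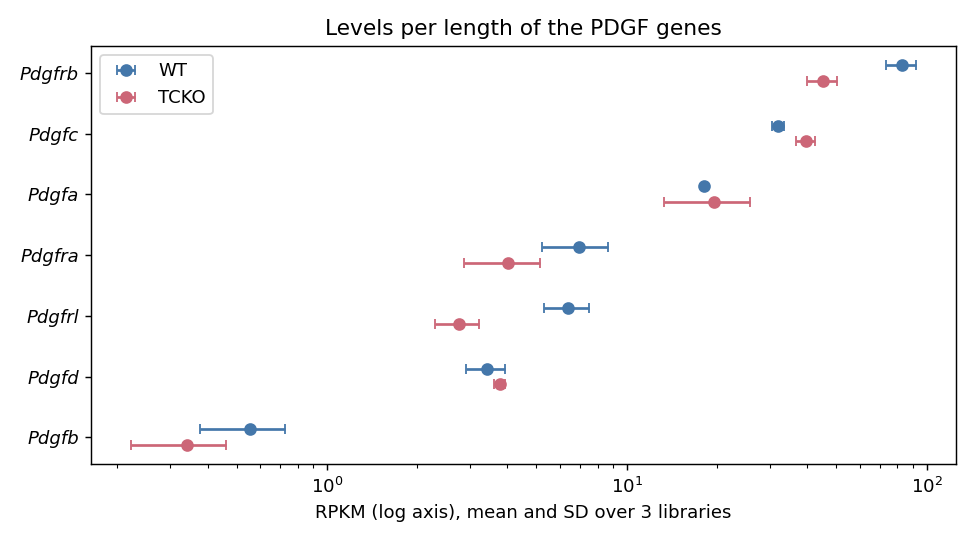
Level per length of the 7 PDGF genes, on a log axis of RPKM; points are means and bars SDs over 3 libraries of WT (blue) and TCKO (red). Pdgfrb lies at 82.8 RPKM in WT and 45.1 in TCKO, while Pdgfc lies at 32.0 and 39.6 RPKM, so that the genes come together in TCKO.

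Both receptor genes and the receptor-like gene had lower levels in every library labelled TCKO than in any WT library, and of the 4 ligand genes Pdgfc alone was higher in every library labelled TCKO. In bulk RNA, fewer cells of a type and less RNA per cell cannot be told apart. By the quasi-likelihood test of edgeR, Benjamini-Hochberg adjusted over all tested genes, 3 of the 7 passed an adjusted p of 0.05, against 17.7% of all tested genes. They were Pdgfrb and Pdgfrl, lower as were 8.63% of the tested genes, and Pdgfc, higher as were 9.07%. Only Pdgfrl was also changed more than 2-fold, as were 6.35% of the tested genes. The ranges of the genotypes did not overlap in 4 of the 7, against 38.3% of the tested genes. With the replicate number as a block, 4 of the 7 passed, with Pdgfra added, against 23.5%. The median log2 fold change of the 7 was -0.70, and that of all tested genes was 0.00.

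**Figure D2:**
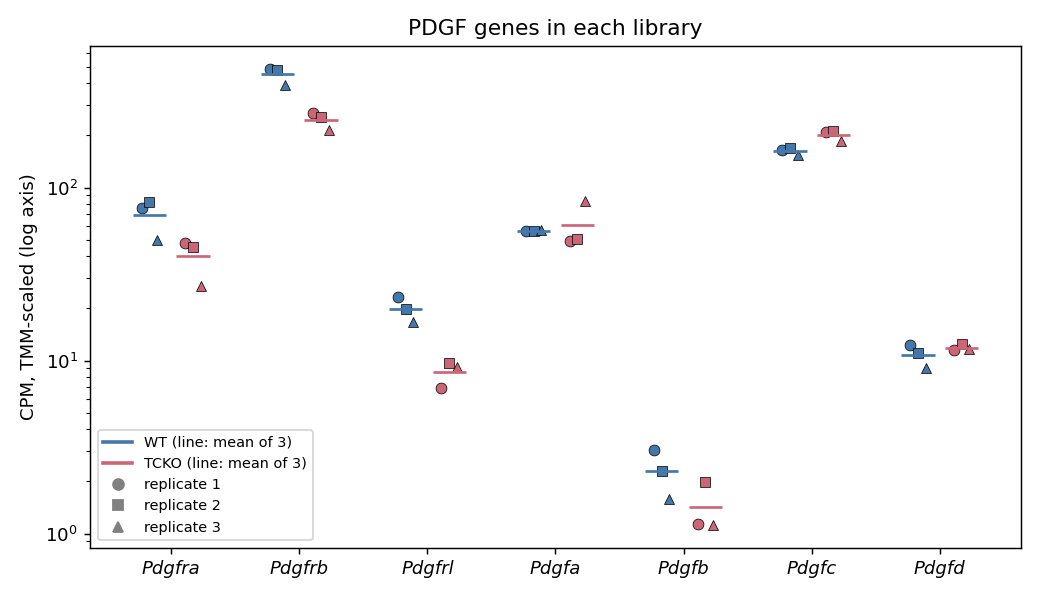
TMM-scaled CPM (log axis) of the 7 PDGF genes in each of the 6 libraries, with WT in blue, TCKO in red, a marker shape for each replicate number and a line at the mean of 3. Pdgfra, Pdgfrb and Pdgfrl lie lower in all 3 TCKO libraries than in the WT libraries and Pdgfc lies higher, while TCKO replicate 3 alone holds the highest Pdgfa level, at 83.2 CPM.

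Pdgfrb (ENSMUSG00000024620, chromosome 18, 61045150 to 61085061, GRCm38, plus strand) encodes PDGF receptor beta. In the order of replicates 1, 2 and 3, its WT counts were 4017, 4824 and 3239 and its TCKO counts 2355, 2063 and 1924. Scaled, these were 486.4, 481.4 and 392.6 CPM in WT against 268.8, 256.4 and 215.8 CPM in TCKO, so the lowest WT library lay far above the highest TCKO library. Its mean fell from 453.5 ± 52.7 CPM to 247.0 ± 27.7 CPM (SD, n = 3), which is -0.88 ± 0.12 on the log2 scale (SE; edgeR adjusted p = 0.00259). Within same-numbered replicates the log2 differences were -0.86, -0.91 and -0.86. The numbers do not tell replicate 1 from replicate 2 across the genotypes, so for these 2 the pairing is by label only. The change passed the test without any one library (highest adjusted p = 0.0169, without WT replicate 2), but not with the close replicates 1 and 2 of each genotype summed, 2 samples against 2 (-0.87, adjusted p = 0.0694). With a replicate block on those sums the adjusted p was 0.0154.

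Pdgfra (ENSMUSG00000029231, chromosome 5, 75152292 to 75198215, GRCm38, plus strand) encodes PDGF receptor alpha. Its WT counts were 631, 829 and 411, against TCKO counts of 421, 365 and 242, or 76.4, 82.7 and 49.8 CPM against 48.1, 45.4 and 27.1 CPM. The groups did not overlap, but WT replicate 3 lay only just above TCKO replicate 1, and replicate 3 was the lowest library in both genotypes. The WT mean was 69.7 ± 17.5 CPM and the TCKO mean 40.2 ± 11.4 CPM (SD, n = 3). The log2 fold change of -0.80 ± 0.25 (SE) did not pass the edgeR test (adjusted p = 0.0635). It passed with a replicate block (-0.80, adjusted p = 0.000933). The log2 differences within same-numbered replicates were -0.67, -0.87 and -0.88. DESeq2 gave an adjusted p of 0.0122. Leaving out WT replicate 3 brought the change past the threshold (-0.99, adjusted p = 0.0212), and without any other library the adjusted p lay above 0.05, up to 0.21 without WT replicate 2. With replicates 1 and 2 summed it was 0.279, and 0.0146 with a block on those sums.

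Pdgfrl (ENSMUSG00000031595, chromosome 8, 40926212 to 40990785, GRCm38, plus strand) encodes a protein similar to the ligand-binding part of PDGF receptor beta but without a kinase. Its WT counts were 193, 200 and 137, against TCKO counts of 61, 78 and 82, or 23.4, 20.0 and 16.6 CPM against 6.96, 9.70 and 9.20 CPM, with no overlap. Its mean fell from 19.98 ± 3.38 CPM to 8.62 ± 1.46 CPM (SD, n = 3), and so dropped by 56.9%, the steepest fall of the 7 genes. The log2 fold change was -1.21 ± 0.18 (SE; edgeR adjusted p = 0.00417). The differences within same-numbered replicates were -1.75, -1.04 and -0.85. The change passed without any one library (highest adjusted p = 0.0234, without WT replicate 2), and with replicates 1 and 2 summed the adjusted p was 0.0601.

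Because a ratio inside a library does not depend on scaling, the receptors were also compared with each other. The log2 ratio of Pdgfra to Pdgfrb, in counts per kilobase plus a pseudocount of 0.5 counts, was -3.54, -3.41 and -3.85 in WT and -3.35, -3.37 and -3.86 in TCKO. In both genotypes replicate 3 had the lowest ratio and the ranges overlapped. The means of -3.60 ± 0.224 and -3.53 ± 0.288 (SD, n = 3) differed by 0.073 (exact permutation test, two-sided, p = 0.60; adjusted over the 2 ratios tested, 0.60; the smallest p of 3 against 3 is 0.10), and the difference turned negative without WT replicate 3 (-0.051), TCKO replicate 1 (-0.014) or TCKO replicate 2 (-0.007). Without TCKO replicate 3 it was 0.239, without WT replicate 2 0.167 and without WT replicate 1 0.102. Pdgfra made up between 6.43% and 8.90% of the summed RPKM of the 2 receptors in all 6 libraries.

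Among the ligands, Pdgfc (ENSMUSG00000028019, chromosome 3, 81036416 to 81214040, GRCm38, plus strand) encodes a ligand that is cut outside the cell and signals mainly through PDGF receptor alpha. Its WT counts were 1361, 1689 and 1280, against TCKO counts of 1825, 1703 and 1650, or 164.8, 168.6 and 155.2 CPM against 208.3, 211.7 and 185.1 CPM. Every TCKO library lay above every WT library, and replicate 3 was the lowest of each genotype. Its mean rose from 162.8 ± 6.91 CPM to 201.7 ± 14.5 CPM (SD, n = 3), or by 23.9%, which is 0.31 ± 0.08 on the log2 scale (SE; edgeR adjusted p = 0.0336). This call did not hold without WT replicate 1 (adjusted p = 0.109), WT replicate 2 (0.0903), WT replicate 3 (0.0511), TCKO replicate 1 (0.122) or TCKO replicate 2 (0.127), and held without TCKO replicate 3 (0.00753). With replicates 1 and 2 summed the adjusted p was 0.291, and 0.163 with a block on those sums.

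Pdgfa (ENSMUSG00000025856, chromosome 5, 138976014 to 138997370, GRCm38, minus strand) encodes the ligand that binds PDGF receptor alpha only. Its WT counts were 465, 564 and 468, against TCKO counts of 428, 406 and 742. Its CPM were nearly equal in WT, at 56.3, 56.3 and 56.7, and split in TCKO, with 48.9 and 50.5 in replicates 1 and 2, below all of WT, and 83.2 in replicate 3, above all of WT. The log2 fold change was 0.11 ± 0.19 (SE; edgeR adjusted p = 0.741), and it was -0.18 without TCKO replicate 3 (adjusted p = 0.126). TCKO replicate 3 is the library with the Xist and Ddx3y counts given above, and their part in its Pdgfa level was not tested. The gene overlaps 6330403L08Rik, on the opposite strand, which had 103 to 170 counts per library. Whether the counting used the strand is not stated, so the counts of the pair are less certain.

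Pdgfd (ENSMUSG00000032006, chromosome 9, 6168584 to 6378850, GRCm38, plus strand) encodes a ligand of PDGF receptor beta that is cut outside the cell. Its WT counts were 101, 111 and 75, against TCKO counts of 101, 100 and 104, with overlapping CPM of 12.2, 11.1 and 9.09 against 11.5, 12.4 and 11.7 (log2 fold change 0.14 ± 0.15, SE; edgeR adjusted p = 0.576). Pdgfb (ENSMUSG00000000489, chromosome 15, 79995874 to 80014977, GRCm38, minus strand) encodes the ligand that binds both receptors, and endothelial cells and platelets are its best-known sources. The WT libraries held 25, 23 and 13 counts of it and the TCKO libraries 10, 16 and 10, or 3.03, 2.30 and 1.58 CPM against 1.14, 1.99 and 1.12 CPM, with overlap. At these counts its log2 fold change of -0.70 ± 0.37 (SE; edgeR adjusted p = 0.232) could not be told from 0.

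**Figure D3:**
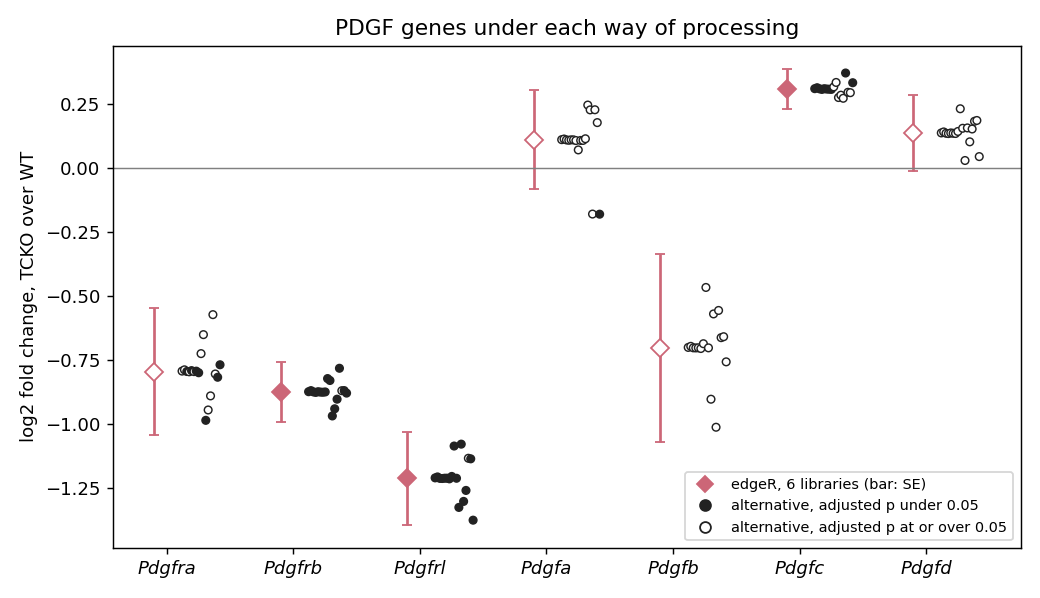
Log2 fold change of each PDGF gene, TCKO over WT, in the edgeR fit of 6 libraries (diamond, bar: SE) and under each of the 17 other ways of processing (circles); filled symbols passed an adjusted p of 0.05. Pdgfb was tested in 16 of the 17, not at a mean of at least 50 counts. Pdgfrb and Pdgfrl stayed below 0 and passed in 16 of the 17, Pdgfc stayed above 0 and passed in 10, Pdgfra stayed below 0 and passed in 7, and Pdgfa lay on both sides of 0.

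The make-up of the ligand pool was described from RPKM. Pdgfc took 58.8%, 60.0% and 58.7% of the ligand RPKM in WT and 67.6%, 66.9% and 54.3% in TCKO, while Pdgfa took 32.8%, 32.7% and 35.0% against 25.9%, 26.0% and 39.8%. TCKO replicates 1 and 2 thus lay on one side of WT and TCKO replicate 3 on the other. The log2 ratio of Pdgfa to Pdgfc was -0.842, -0.875 and -0.744 in WT and -1.39, -1.36 and -0.446 in TCKO, a mean difference of -0.243 (exact permutation test, two-sided, p = 0.40; adjusted over the 2 ratios, 0.60). Without TCKO replicate 3 the difference was -0.552, without TCKO replicate 1 -0.083 and without TCKO replicate 2 -0.095. The 4 ligands summed to between 51.94 and 55.23 RPKM in WT and between 60.53 and 67.02 in TCKO, and the 2 receptors to between 76.65 and 96.41 RPKM in WT and between 42.11 and 53.87 in TCKO. The ligand sum was 0.571, 0.575 and 0.678 times the receptor sum in WT and 1.12, 1.21 and 1.59 times in TCKO. The highest of these values was in TCKO replicate 3, with the lowest receptor sum of all libraries, at 42.11 RPKM. Its ligand sum, at 67.02 RPKM, was the highest, with the highest Pdgfa level, at 26.7 RPKM. Its Pdgfc level, at 36.4 RPKM, was the lowest of TCKO. The sums are given as a description.

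The sequences just upstream of the transcription starts are shown because TET enzymes act on methylated CpG, and the genes differ in how many CpG they hold there. Windows of 250 bases from RefSeq (GRCm38.p6) were read for 4 of the 7 genes, and 32817 such windows over all genes had a median of 6 CpG. Pdgfrb was left out of this reading, so the lack of a window for it is not a result. The window of Pdgfra (chr5:75152001-75152250, plus strand), lower in every TCKO library, held 4 CpG, and 62.2% of all windows held at least as many. That of Pdgfc (chr3:81036166-81036415, plus strand), higher in every TCKO library, held 3, as did that of Pdgfd, and 70.9% of windows held at least as many. Pdgfa, with no difference past the test, had 2 windows with 19 and 28 CpG, and 7.61% of all windows held at least as many as the richer one (chr5:138994945-138995194, minus strand). Sequences run 5′ to 3′ and capitals mark CpG.
Pdgfra: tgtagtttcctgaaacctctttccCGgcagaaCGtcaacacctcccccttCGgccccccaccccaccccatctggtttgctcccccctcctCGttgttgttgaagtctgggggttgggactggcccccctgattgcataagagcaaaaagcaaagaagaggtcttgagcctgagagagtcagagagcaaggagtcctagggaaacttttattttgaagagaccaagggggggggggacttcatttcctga
Pdgfc: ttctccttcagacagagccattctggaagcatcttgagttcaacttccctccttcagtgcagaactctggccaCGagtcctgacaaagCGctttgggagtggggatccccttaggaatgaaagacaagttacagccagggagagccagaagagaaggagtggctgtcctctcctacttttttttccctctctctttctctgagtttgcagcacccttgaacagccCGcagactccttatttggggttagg
Pdgfa: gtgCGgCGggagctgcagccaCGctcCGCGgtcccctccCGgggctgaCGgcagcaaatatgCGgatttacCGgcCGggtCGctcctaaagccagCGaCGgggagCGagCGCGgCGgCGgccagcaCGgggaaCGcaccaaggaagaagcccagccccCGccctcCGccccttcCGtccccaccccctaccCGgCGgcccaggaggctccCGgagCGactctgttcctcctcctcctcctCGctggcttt
The core motif of RUNX factors, TGTGGT, or its reverse complement ACCACA, was in none of the 5 windows of these genes on either strand, and 14% of all windows held it. No window of Pdgfrb, which was left out, or of Pdgfrl is among these 5, and these were the genes that were lower past the test. No methylation was measured in these libraries, so nothing here links the letters to the changes.

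Around the receptors, the genes of proteases that make the ligands active changed in both directions. Of 7 such genes, 2 were lower and 4 were higher at an edgeR adjusted p of 0.05, with a median log2 fold change of 0.48. Over all tested genes 8.63% were lower and 9.07% higher, and the counts of each list below stand beside these shares. Plat, the tissue plasminogen activator that cuts PDGF-C, counted 332, 438 and 350 in the WT libraries, against 2740, 2709 and 1245 in those of TCKO, far above WT in every library although replicate 3 had the lowest TCKO count. Its mean rose from 42.1 ± 1.78 CPM to 263 ± 108 CPM (SD, n = 3; log2 fold change 2.64, adjusted p = 0.0014). Plau, the urokinase that cuts PDGF-D, went from 46.8 ± 10.5 to 74.0 ± 12.3 CPM (SD, n = 3; 0.66, adjusted p = 0.0364). The proprotein convertases, which cut PDGF-A and PDGF-B inside the cell, moved in both directions: Furin (0.48, adjusted p = 0.00347) and Pcsk5 (1.42, adjusted p = 0.00591) rose and Pcsk6 (-0.82, adjusted p = 0.0475) fell. St14, which encodes matriptase, another protease of PDGF-D, fell from 2.76 to 1.02 CPM (-1.42, adjusted p = 0.0305). The calls of Plau, Pcsk6 and St14 held without WT replicate 3 and were lost without any one of the other 5 libraries, with adjusted p up to 0.133, 0.164 and 0.105. With replicates 1 and 2 of each genotype summed, 1 of the 6 calls passed in edgeR, that of Plat (adjusted p = 0.0453). Furin (0.115) and Pcsk5 (0.0895) did not. With a block on those sums 3 of the 6 passed, those of Plat, Plau and Pcsk5.

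All 4 genes of ligand-binding proteins and co-receptors had groups that did not overlap, against 38.3% of the tested genes. By the edgeR test 2 were lower and 1 higher, against 17.7% of all tested genes in either direction, with a median of -0.66. Sparc, a matrix protein that binds PDGF-B, fell from 9880 ± 974 to 5102 ± 363 CPM (SD, n = 3; -0.95, adjusted p = 0.00198). Nrp1, a co-receptor of PDGF and vascular endothelial growth factor, counted 560, 716 and 585 in the WT libraries, against 1496, 1320 and 1316 in those of TCKO (1.20, adjusted p = 0.000127). Cspg4, the proteoglycan NG2 that binds PDGF-A, fell from 183 ± 71.7 to 89.1 ± 27.2 CPM (SD, n = 3; -1.04, adjusted p = 0.0459). Its call held without TCKO replicate 3 and was lost without any one of the other 5 libraries (adjusted p up to 0.149), and with a replicate block it was 0.000342. Lrp1, an endocytic receptor that partners PDGF receptor beta, was at -0.37 (adjusted p = 0.0592). Its adjusted p was 0.0346 with the block but 0.33 with a block on the sums of replicates 1 and 2, where Sparc was at 0.0742. On those sums without a block the Nrp1 call held (adjusted p = 0.0168), and those of Sparc (0.0934) and Cspg4 (0.213) did not.

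**Figure D4:**
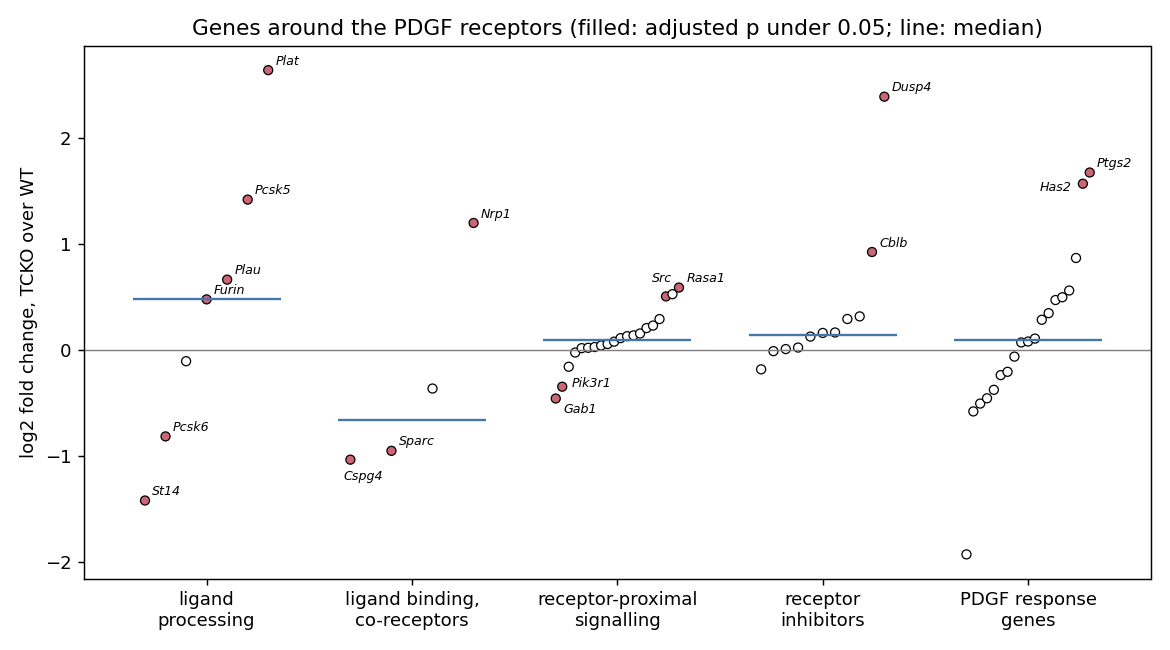
Log2 fold change (TCKO over WT) of the tested genes of 5 lists around the PDGF receptors; each circle is a gene, filled where the edgeR adjusted p is under 0.05, and the line is the median of the whole list; 1 inhibitor and 1 response gene are not shown. Ligand processing holds the widest spread, from -1.42 (St14) to 2.64 (Plat), while most signalling genes lie near 0.

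Most adaptors and kinases that carry the signal did not pass the test: of 20 receptor-proximal genes, 2 were lower and 2 higher, with a median of 0.09. Gab1, a docking adaptor, was at -0.46 (edgeR adjusted p = 0.0308) and Pik3r1, a regulatory subunit of PI3-kinase, at -0.35 (adjusted p = 0.0221). Src was at 0.50 (adjusted p = 0.00333) and Rasa1, a brake on RAS that binds PDGF receptor beta, at 0.59 (adjusted p = 0.00293). With replicates 1 and 2 summed, 0 of these 4 calls passed in edgeR (Src 0.0862, Rasa1 0.0849). Src (0.0482) and Rasa1 (0.0441) passed with a block on those sums. The Gab1 call held without WT replicate 3 only (adjusted p up to 0.12 without one of the others), and that of Pik3r1 was lost without WT replicate 2 (0.0909), TCKO replicate 1 (0.0861) or TCKO replicate 2 (0.0872). With the block, 4 of the 20 were higher, with Nck2 (adjusted p = 0.00365) and Shc1 (0.0303) added; on the sums of replicates 1 and 2 with a block, Nck2 passed (0.04) and Shc1 did not (0.16). Of 12 genes that limit receptor signalling, 2 were higher, with a median of 0.14 over the list. Cblb, a ubiquitin ligase, rose (0.92, adjusted p = 0.000355), as did Dusp4, a MAP kinase phosphatase, from 2.73 ± 0.290 to 14.4 ± 6.02 CPM (SD, n = 3; 2.39, adjusted p = 0.00243). With the block Ptpn1 was also higher (adjusted p = 0.0309), but not with a block on the sums of replicates 1 and 2 (0.151).

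Of 20 genes known to respond to PDGF, 2 were higher past the test, with a median of 0.09. Has2, the hyaluronan synthase, rose from 52.2 ± 2.66 to 155 ± 21.3 CPM (SD, n = 3; log2 fold change 1.57, edgeR adjusted p = 0.000166). Ptgs2, the inducible cyclooxygenase, rose from 417 ± 311 to 1330 ± 386 CPM (1.67, adjusted p = 0.046). Its call held without WT replicate 3 and was lost without any one of the other 5 libraries (adjusted p up to 0.155). With a replicate block 7 of the 20 were higher and 1 was lower, and the added genes included Egr1, Hbegf, Junb and Plaur (adjusted p from 0.000711 to 0.0274) and, on the lower side, Cxcl1 (-1.81, adjusted p = 0.00894). With a block on the sums of replicates 1 and 2, 3 were higher and 1 was lower: Hbegf (adjusted p = 0.0151) and Cxcl1 (0.0231) passed, and Egr1 (0.119), Junb (0.151) and Plaur (0.0922) did not. The immediate-early gene Fos counted 309, 339 and 2334 in the WT libraries, against 266, 258 and 1542 in those of TCKO. It was thus high in replicate 3 of both genotypes, the libraries that stood apart. The part of that rise in the list's calls was not tested.

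The genes that marked cells known for PDGF receptors or ligands were read beside these results. The 10 mural cell markers, read because PDGF receptor beta is best known from pericytes, were present in part: Kcnj8 and Abcc9 had at most 6 and 12 counts in a library, and Rgs5 had 34 to 82 (log2 fold change -0.44, edgeR adjusted p = 0.362). Of the 8 tested, 2 were lower, Cspg4 and Notch3 (-0.62, adjusted p = 0.024), and 2 were higher, Mcam (1.16, adjusted p = 0.00259) and Cnn1 (1.80, adjusted p = 0.00013). The summed level of the 10 was 2174 to 2373 CPM in WT and 2473 to 2968 CPM in TCKO. Most of this sum was Acta2, at 1710 to 2020 CPM in WT and 1942 to 2427 CPM in TCKO, with overlap (0.26, adjusted p = 0.179). Notch3 lost its call without WT replicate 1 (0.0951), WT replicate 2 (0.0975), TCKO replicate 1 (0.0904) or TCKO replicate 2 (0.0919). Of the 10 endothelial markers, Pecam1, Cdh5, Cldn5, Tie1, Emcn and Tek had at most 8 counts in a library. Erg was lower (-2.65, adjusted p = 0.00505) and Esam higher (2.47, adjusted p = 0.0238), with the latter call lost without WT replicate 1 (0.0721) or WT replicate 2 (0.0803). The list summed to 8.0 to 11.3 CPM in WT and to 40.6 to 104 CPM in TCKO, where Kdr held most of it at 33.1 to 93.9 CPM, against 0.363 to 1.58 CPM in the WT libraries. The 5 markers of oligodendrocyte progenitors and Schwann cells, of which the former are the classic cells with PDGF receptor alpha outside mesenchyme, had at most 16 counts each in a library.

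Several markers of mesenchymal cells and of macrophages were lower together with the receptors. All 6 chondrocyte markers were lower in TCKO, from Sox9 (-1.08, edgeR adjusted p = 0.0047) to Cnmd (-4.45, adjusted p = 0.00206), with a median of -2.92 and summed levels of 6209 to 8059 CPM in WT against 679 to 959 CPM in TCKO; the Matn1 call was lost without 5 of the 6 libraries, TCKO replicate 3 excepted (adjusted p up to 0.14). Of the 7 tested fibroblast and progenitor markers, Ly6a (-2.38, adjusted p = 0.000822) and Prrx1 (-0.43, adjusted p = 0.0392) were lower and Thy1 (1.18, adjusted p = 0.0417) was higher. The Prrx1 call was lost without WT replicate 1 or 2 or TCKO replicate 1 or 2 (adjusted p up to 0.149), and that of Thy1 without any one library but TCKO replicate 3 (up to 0.135). The list summed to 1643 to 2743 CPM in WT and 1297 to 2003 CPM in TCKO. Of 7 tested osteoblast markers, Runx2 (-0.45, adjusted p = 0.00397), Alpl (-3.54, adjusted p = 0.00743) and Col1a1 (-0.61, adjusted p = 0.038) were lower and Spp1 (2.62, adjusted p = 0.00669) was higher. The late marker Bglap had at most 2 counts in a library. The Col1a1 call was lost without WT replicate 1 or 2 or TCKO replicate 1 or 2 (adjusted p up to 0.134). With replicates 1 and 2 summed, 0 of the 4 osteoblast calls passed (Runx2 0.102, Alpl 0.0654, Col1a1 0.28, Spp1 0.123). With a block on those sums, of the 4 only Alpl passed (0.00438). Of the 6 chondrocyte calls, 2 passed on the sums and 5 with the block on them. The 10 macrophage and osteoclast markers had a median of -0.91, with Csf1r (-1.21, adjusted p = 0.0253) and Adgre1 (-1.44, adjusted p = 0.01) lower, and 9 of 10 lower with the block but 4 of 10 with a block on the sums of replicates 1 and 2. Acp5, an osteoclast marker, was the only one of the 10 above 0 (0.47, adjusted p = 0.467). The list summed to 408 to 769 CPM in WT and 164 to 581 CPM in TCKO. Most of this sum was Lyz2, at 325 to 616 CPM in WT and 131 to 488 CPM in TCKO (-0.52, adjusted p = 0.482). In both genotypes replicate 3 had the lowest sum, as it had the lowest level of Pdgfra. Of the 3 tested platelet markers, 0 passed in edgeR or DESeq2 (1 at an unadjusted p under 0.05 in each). The whole list of 5 platelet markers summed to 17.3 to 24.2 CPM with overlap. The part of these cell types in the receptor levels was not tested.

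The genes around the 7 PDGF genes were read in the deposited coordinates (GRCm38). Within 1 Mb there were 121 tested neighbours, of which 10 were lower and 9 were higher at an edgeR adjusted p of 0.05. Over all tested genes 8.63% were lower and 9.07% higher. The median of the neighbours was 0.04. Of their 19 calls, 9 held without any one library and 4 with replicates 1 and 2 summed. Pdgfrb had 24 neighbours, 4 lower and 1 higher. Directly downstream, at 15.5 kb, lay Csf1r, the receptor of macrophage colony-stimulating factor and a gene of the same receptor family. With 303, 314 and 153 counts in the WT libraries and 132, 111 and 76 in those of TCKO, replicate 3 was the lowest library of each genotype. Arsi, an arylsulfatase upstream at -127 kb, counted 1308, 1587 and 1239 in the WT libraries, against 199, 188 and 175 in those of TCKO, the steepest fall near Pdgfrb (-2.83, edgeR adjusted p = 1.05e-05). Slc26a2, a sulfate transporter (-0.43, adjusted p = 0.0264), and Sh3tc2 (-1.34, adjusted p = 0.0214) were lower and Smim3 (0.32, adjusted p = 0.0316) was higher. The calls of Csf1r, Slc26a2, Sh3tc2 and Smim3 were each lost without WT replicate 1 or 2 or TCKO replicate 1 or 2, with adjusted p up to 0.0955, 0.107, 0.0818 and 0.129.

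Pdgfra had 8 tested neighbours, of which 1 passed: Kdr, the vascular endothelial growth factor receptor 2, at 735 kb, counted 3, 4 and 13 in the WT libraries, against 293, 266 and 837 in those of TCKO (6.12 ± 0.67, SE; edgeR adjusted p = 0.00111). The 2 genes, neighbours in one cluster of receptor genes, thus had opposite directions in every library pair. Kit, the gene between them in that cluster, had at most 7 counts in a library. Pdgfrl began 3.9 kb after the end of Slc7a2, an arginine transporter on the same strand, whose WT counts were 166, 193 and 204, against TCKO counts of 39, 46 and 36 (-2.17, adjusted p = 0.000338). On the other side of Slc7a2, at -416 kb from Pdgfrl, Zdhhc2 was higher (1.63, adjusted p = 0.00223). The 3 tested neighbours of Pdgfc had negative values that did not pass, at -0.41 (Glrb), -0.72 (A830029E22Rik) and -0.53 (Ctso, with the lowest adjusted p of 0.0673).

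**Figure D5:**
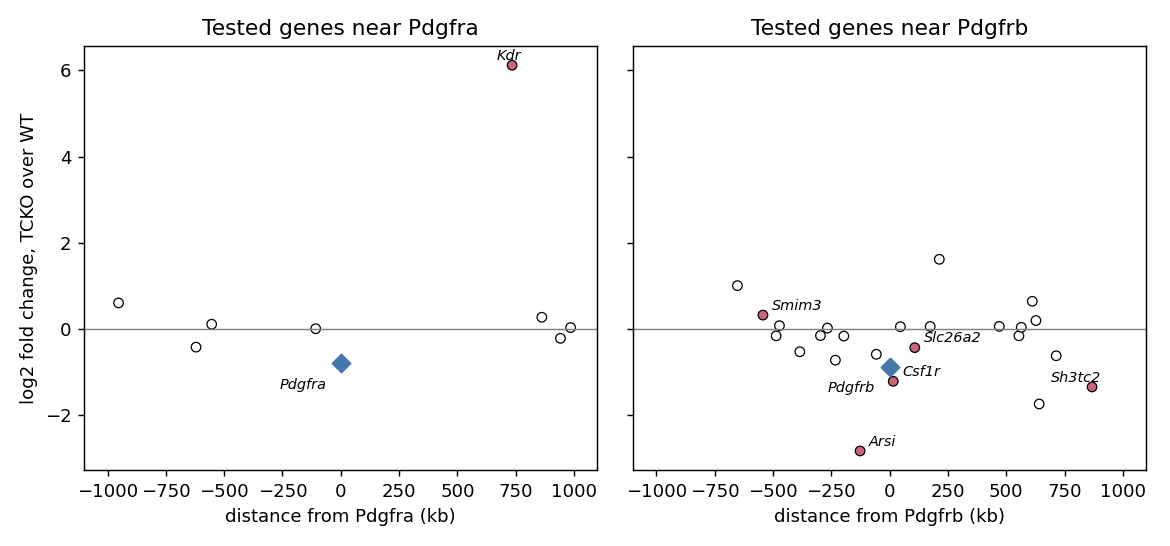
Log2 fold change (TCKO over WT) of the tested genes within 1 Mb of Pdgfra (left) and Pdgfrb (right) against the distance from the gene in kb; red circles passed an edgeR adjusted p of 0.05 and the diamond is the receptor gene. Near Pdgfra only Kdr, at 6.12, passed, and near Pdgfrb 4 genes were lower, with Arsi at -2.83, and 1 was higher.

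Around the ligands, Pdgfa had 32 tested neighbours, with Gper1 (-2.56, edgeR adjusted p = 0.0195) lower and Mcm7 (0.47, adjusted p = 0.00685), Prkar1b (0.73, adjusted p = 0.00587) and Elfn1 (0.99, adjusted p = 0.0345) higher. Pdgfb had 38, with H1f0 (-0.52, adjusted p = 0.0496), Sun2 (-0.68, adjusted p = 0.00141) and Atf4 (-0.30, adjusted p = 0.0428) lower and Pla2g6 (0.57, adjusted p = 0.019), Csnk1e (0.58, adjusted p = 0.00608) and Apobec3 (0.997, adjusted p = 0.014) higher. Pdgfd had 5, with Mmp12 (-1.92, adjusted p = 0.00856) lower. Several of these calls were lost without 1 library. Those of H1f0 (adjusted p up to 0.174) and Atf4 (up to 0.137) held only without WT replicate 3 and without TCKO replicate 3, respectively. That of Elfn1 (up to 0.122) held only without TCKO replicate 2 or 3. Gper1 was lost without WT replicate 1 or 2 or TCKO replicate 2 (up to 0.076), Pla2g6 without WT replicate 2 or TCKO replicate 1 (up to 0.0693), and Apobec3 without WT replicate 1 or TCKO replicate 1 (up to 0.0622).

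The genes whose log2 CPM across the 6 libraries was most like each PDGF gene were named from 9262 genes with a mean of at least 100 counts. The points share the genotype difference and the gap of replicate 3, so these correlations are a description. Pdgfrb was most like Sox6, Galnt10 and Islr (Pearson r = 0.999 each), and Pdgfra like Mut (0.999), H1f0 (0.997) and Fndc1 (0.997). For Pdgfrl they were Pard6g (0.999), Pqlc3 (0.992) and Per3 (0.992). Pdgfc was most like Pkig (0.999), Tubg1 (0.998) and Pcsk5 (0.997), the convertase gene given above. Pdgfa was most like Gm17501 (0.996), Ahrr (0.996) and Asb6 (0.987). Among the PDGF genes, r was 0.916 between Pdgfra and Pdgfrb, 0.921 between Pdgfrb and Pdgfrl, 0.744 between Pdgfra and Pdgfrl, and -0.848 between Pdgfc and Pdgfrl.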

How the data were processed

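The deposited values are raw counts per gene, which the authors made from poly(A) libraries of a directional kit by aligning reads to GRCm38 with STAR 2.7.0e and counting them over exons with featureCounts 2.0.0. The submitters' processing notes also name CASAVA and DESeq2. Whether counting used the strand is not stated. The deposited gene length, summed over exons, gave RPKM. Groups and replicate numbers came from the sample titles.

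Counts were tested in edgeR 4.0.16 (R 4.3.3): filterByExpr, TMM factors, glmQLFit and glmQLFTest on genotype over all 6 libraries, without covariates, with Benjamini-Hochberg adjustment over the 13826 tested genes, which hold all 7 PDGF genes. Ratios were compared with exact permutation tests in scipy 1.17.1. The scripts were tested on simulated data. The PDGF genes, the gene lists and the tests were chosen with earlier results of these data known. The text names every PDGF gene, the genes of each list and the neighbours within 1 Mb that passed or that describe the list, and the 3 genes most like each PDGF gene with a mean of at least 100 counts. Some genes of the lists are not reported here. Promoter windows came from RefSeq (GRCm38.p6) and were not read for Pdgfrb.

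Total counts were 8019999 to 10177214, and a floor of 3 counts covers counting error only. Deviations of same-numbered libraries of the genotypes correlated across genes at 0.204, 0.214 and 0.347 (replicates 1, 2 and 3). WT replicate 2 with TCKO replicate 1, at 0.225, and WT replicate 1 with TCKO replicate 2, at 0.188, were as close, so the numbers set replicate 3 apart and do not tell replicate 1 from replicate 2. The replicate number, taken from the titles, was used as a block in an alternative fit. The other alternatives were DESeq2 1.42.0, the study's recipe (DESeq2 with an RPKM over 0.24), DESeq2 size factors, upper-quartile factors, genes filtered only at 1 count or at a mean of 50 counts, a robust fit, each library left out, replicates 1 and 2 summed with and without a block, and replicates 1 and 2 only.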

Additional observations from a re-analysis of the deposited data

How the results depend on the processing

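With replicates 1 and 2 of each genotype summed, 386 genes passed an adjusted p of 0.05 (2447 in the fit of 6 libraries) and 324 also changed over 2-fold (878). Of the 7 PDGF genes, 0 passed and 0 over 2-fold in edgeR (2 at an unadjusted p under 0.05, both lower; DESeq2 on the 6 libraries called 4), 9 of the genes of the pathway lists passed (27) and 4 of the neighbours (19). With a replicate block on the sums the counts were 1150 genes, 3 PDGF genes (Pdgfra, Pdgfrb and Pdgfrl), 21 pathway genes and 12 neighbours. With replicates 1 and 2 only, whose spread is the smallest, 6237 genes, 5 PDGF genes, 50 pathway genes and 57 neighbours passed, and a mean of at least 50 counts left 543 genes over 2-fold. With the replicate block on the 6 libraries, 3249 genes and 4 PDGF genes passed, and the block changed no PDGF call other than that of Pdgfra. Leaving out 1 library gave 1153 to 3122 genes, 17 to 33 pathway genes and 10 to 25 neighbours, and a difference in the log2 ratio of Pdgfra to Pdgfrb of -0.051 to 0.239. Leaving out 1 library moved the log2 fold change of Pdgfa between -0.18 (without TCKO replicate 3) and 0.25, and it was -0.18 with replicates 1 and 2 only, where its adjusted p was 0.0479. Pdgfb was not tested at a mean of at least 50 counts. The cause of these shifts was not tested. The closeness of replicates 1 and 2 and the 10 to 25 counts of Pdgfb limit what these values can show.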

Other observations

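The receptor tyrosine kinases closest to the PDGF receptors and their ligands were read as values. Of 15 such genes 13 were tested, with 3 lower and 6 higher at an edgeR adjusted p of 0.05 and a median log2 fold change of 0.56. Among the ligands of CSF1R, Il34 fell from 15.7 to 3.97 CPM (-1.98 ± 0.23, SE; adjusted p = 0.00152), while Csf1 was at 1190 CPM in WT and 1048 CPM in TCKO (-0.18, adjusted p = 0.664). The vascular endothelial growth factor receptor genes Flt1 (2.02, adjusted p = 0.00336) and Flt4 (1.46, adjusted p = 0.00074) rose, as did Kdr. Of their ligands, Vegfc rose from 3.77 to 27.9 CPM (2.88, adjusted p = 0.000237), Vegfa (0.70, adjusted p = 0.0225) and Vegfb (0.56, adjusted p = 0.0147) were higher, and Vegfd fell from 33.8 to 17.1 CPM (-0.99, adjusted p = 0.00583). The calls of Vegfa, Vegfb and Csf1r were lost without WT replicate 2, TCKO replicate 1 or TCKO replicate 2, and those of Vegfa and Csf1r also without WT replicate 1 (adjusted p up to 0.0921, 0.0651 and 0.0955). With replicates 1 and 2 summed, 4 of the 9 calls passed in edgeR, those of Kdr, Flt4, Vegfc and Il34. Flt1 (adjusted p = 0.071) and Vegfd (0.0885) did not. With a block on those sums 7 of the 9 passed. Kitl, the ligand of KIT, was at 0.21 (adjusted p = 0.357), and Flt3 had 0 counts in every library, which allows up to 0.374 CPM.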
